A study of Homo sapiens with 18 samples.

Results

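The genes described here are 53 genes of DNA replication and S phase, chosen by symbol as the factors that license origins, unwind and copy DNA, supply nucleotides and control entry into S phase. All 53 symbols matched an Ensembl gene ID among the 61806 genes of the count table, and all 53 passed the filter on low counts that left 19743 genes to be tested. The rule names symbols and uses no measured value, but the members were chosen with earlier results of these data known. The members were grouped by role into 11 licensing factors, 8 factors of helicase activation, 9 polymerase and primase subunits, 11 genes of the clamp, the clamp loader, single-strand binding and strand joining, 4 genes of nucleotide supply, 6 genes of S phase entry control and 4 genes of chromatin assembly and maintenance methylation.

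Poly(A) RNA was sequenced from HepG2, an established human hepatoma cell line of genotype WT, and from APOA4-KO, a HepG2 line in which APOA4 had been edited with CRISPR-Cas9. Cells of both lines were taken from 21% oxygen, which is 0 h, and from a hypoxic atmosphere of 1% oxygen at 24 h and at 48 h, with 3 libraries in each of the 6 groups. Edited cells were picked as colonies and selected for mutations in both alleles, and the sources used here do not say from how many clones the sequenced libraries came, so that the effect of the edit cannot be told apart from other differences between the selected cells and the parent line. The 0 h cells were the only ones outside hypoxia, and hypoxia and time in culture cannot be told apart. The study's methods speak in general of independent experiments, but the labels do not say whether the 3 libraries of a group came from separate cultures, so each p-value measures the spread between these libraries, which may be technical.

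Library totals ranged from 76481820 to 91604947 counts. APOA4 itself was at 8.46 to 9.67 CPM (counts scaled to a common library size by TMM) in the HepG2 0 h libraries and at 6.99 to 8.35 CPM in the APOA4-KO 0 h libraries, and at 18.9 to 21.7 CPM against 7.65 to 8.54 CPM at 48 h. An edited gene may still be transcribed, so this level is a limited check of the labels. The 10 hepatocyte and hepatoma markers summed to between 51199 and 76952 CPM in every library. Single markers differed between the lines at 0 h. Group means in HepG2 and APOA4-KO were 130 and 956 CPM for AFP, 101 and 294 for FGB, and 50.2 and 138 for TTR. APOA1 went the other way, at 6577 and 5758 CPM, as did SERPINA1, at 13410 and 12830 CPM. The 8 leukocyte markers summed to 1080 to 1093 CPM in HepG2 at 0 h, 2060 to 2120 at 24 h and 1192 to 1244 at 48 h, and to 1577 to 1618, 2304 to 2493 and 2780 to 2851 CPM in APOA4-KO. LYZ made up nearly all of that sum, with group means from 1039 to 2739 CPM. CD68 had group means from 28.7 CPM in APOA4-KO at 0 h to 69.3 CPM in APOA4-KO at 48 h. The group means of CD14 lay at 4.59 to 7.73 CPM, those of PTPRC at 2.47 to 5.28 CPM and those of SPI1 at 0.131 to 0.417 CPM. CSF1R, ITGAM and TYROBP lay at 0.0385 to 0.703 CPM. No leukocyte marker was at 0 in every group, and the part of this sum in the results below was not tested. The 6 fibroblast markers summed to 104 to 163 CPM and the 3 endothelial markers to 8.34 to 15.7 CPM. The library APOA4-KO 24 h replicate 1 lay farthest from the centre of its own group on the first 2 principal components, and values without it are given beside the counts at 24 h.

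Before S phase, the origin recognition complex, CDC6 and CDT1 load the MCM2 to MCM7 helicase onto origins, a step called licensing. CDC7 with DBF4, MCM10, CDC45 and the GINS complex then turn the loaded helicase into an active one, and the polymerases copy the strands with the help of the sliding clamp PCNA. Many of these genes are targets of E2F transcription factors and are transcribed mainly at the transition from G1 to S phase.

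In APOA4-KO at 48 h, replication genes of every role lay below their 0 h level, whereas in HepG2 the same genes were near their 0 h level. The summed level of the 53 genes was 3029, 2446 and 3209 CPM in HepG2 at 0 h, 24 h and 48 h, and 3084, 2129 and 1499 CPM in APOA4-KO. Between 0 h and 48 h in APOA4-KO, 51 of the 53 members fell, RFC1 rose on the TMM scale but not past the test on library size alone, and PRIM1 did not pass the test (edgeR quasi-likelihood test with Benjamini-Hochberg adjustment over 19743 genes, limit 0.05). Of all genes tested, 25.9% fell and 23.9% rose in this comparison. The median log2 fold change of the members was -1.16, beside -0.07 over all genes, and 35 members fell by at least 1 on the log2 scale, which 6.85% of all genes did. In bulk RNA, fewer cells in S phase and less RNA per cell cannot be told apart. The study reports from flow cytometry that loss of APOA4 left the cell cycle of the line unaffected. It also reports, from a colony assay, a significantly lower seeding efficiency of the line without APOA4. The study states no oxygen level or hours of hypoxia for the cells of either assay. Of the 53 members, 46 had their lowest group mean in APOA4-KO at 48 h, and in 43 all 3 libraries of that group lay below the other 15 libraries, as they did for 8.62% of all genes tested.

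**Figure D1:**
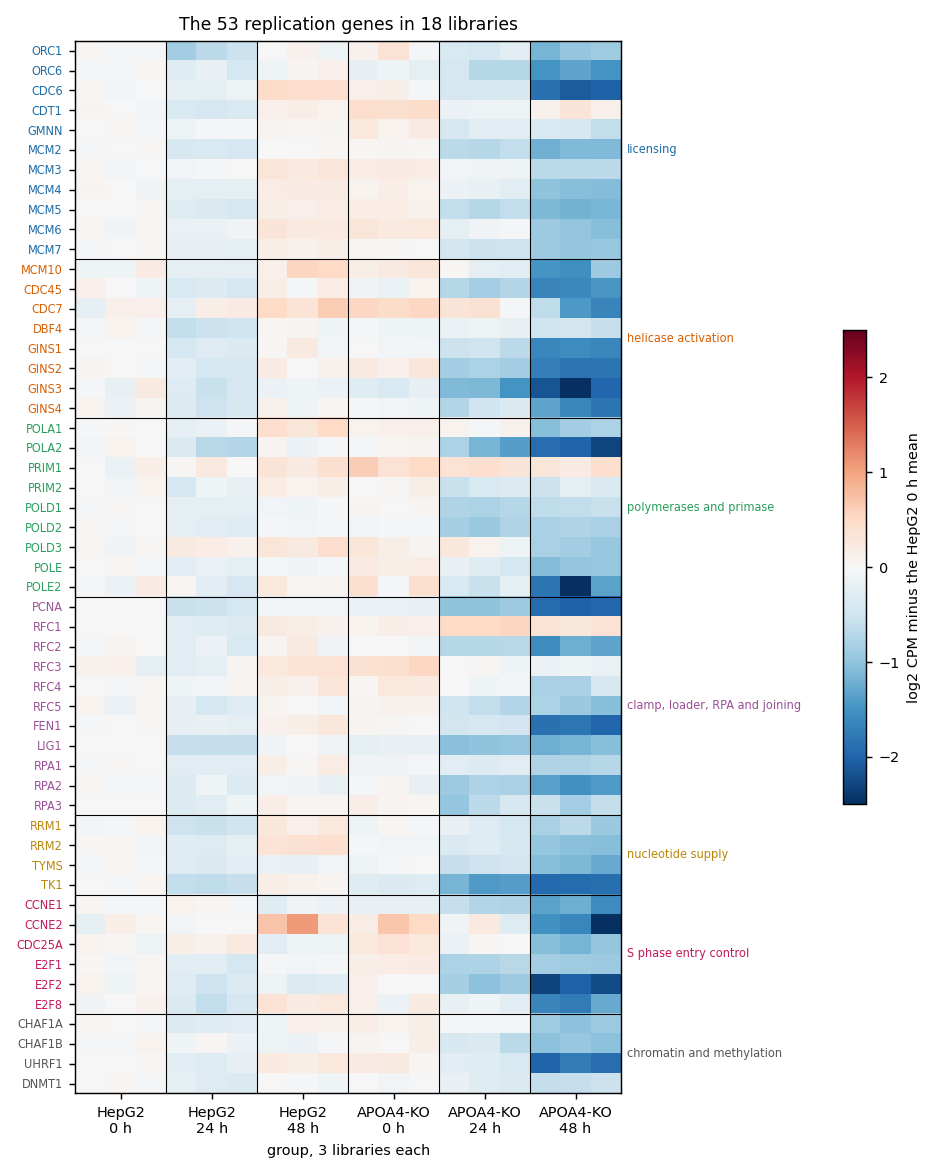
Each row is 1 of the 53 genes, coloured and grouped by role, and each column is 1 of the 18 libraries; colour gives log2 CPM minus the mean of the 3 HepG2 0 h libraries. The 3 columns of APOA4-KO at 48 h are blue in nearly every row, with RFC1, PRIM1 and CDT1 as exceptions on this TMM scale, and the HepG2 24 h columns are pale blue.

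The promoters of 45 members were matched by symbol in a RefSeq table of promoter windows (GRCh38.p14), which run from 250 bases before to 50 bases after a gene start, some genes having several. No window was matched for MCM4, MCM5, GINS4, POLD3, RPA2, RPA3, CCNE2 and E2F8. An E2F motif, searched on both strands as TTTCCCGC, TTTCGCGC, TTTGCCGC or TTTGGCGC, was held by 24 of the 45 members (53.3%) and by 3.99% of the 27305 genes with a window. The CCAAT box, which binds NFY, was held by 26 members (57.8%) beside 39.7% of all genes, and the CHR element of mitotic genes, searched as TTTGAA or TTTAAA, by 7 members (15.6%) beside 27.9%. The searched words of the 3 motifs were counted separately, whether or not they overlapped. A match describes letters in the window and not a bound site. The median log2 fold change from 0 h to 48 h in APOA4-KO was -1.22 over the 24 members with the E2F motif, from -2.24 to -0.24, and -1.01 over the 21 without it, from -1.93 to 0.21. Over the 8 members with no window it was -1.35, from -2.44 to -0.75, and whether these hold the motif is not known here.

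Of the members with an E2F motif, the 5 with the lowest log2 fold change from 0 h to 48 h in APOA4-KO are shown with the bases around the motif, because they are the members whose falls the following paragraphs describe. Each stretch is read 5′ to 3′ on the strand of the gene, the capitals mark the E2F motif, and no stretch runs beyond 30 bases after the gene start.
E2F2, chr1:23531223-23531320, minus strand: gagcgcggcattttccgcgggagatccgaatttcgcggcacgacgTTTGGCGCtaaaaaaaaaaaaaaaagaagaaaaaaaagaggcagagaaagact
POLE2, chr14:49688185-49688264, minus strand: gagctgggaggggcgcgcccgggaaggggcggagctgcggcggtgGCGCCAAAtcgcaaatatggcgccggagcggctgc
POLA2, chr11:65261864-65261961, plus strand: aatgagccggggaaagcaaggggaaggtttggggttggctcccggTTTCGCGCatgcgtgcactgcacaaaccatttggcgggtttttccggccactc
CDC6, chr17:40287841-40287908, plus strand: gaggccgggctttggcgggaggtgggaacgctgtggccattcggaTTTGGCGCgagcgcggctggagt
UHRF1, chr19:4909442-4909530, plus strand: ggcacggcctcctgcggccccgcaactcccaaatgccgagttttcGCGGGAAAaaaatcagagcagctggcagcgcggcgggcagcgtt
The motif began 42 bases before the RefSeq gene start in E2F2, 5 before it in POLE2, 53 before it in POLA2 and 14 before it in UHRF1, and at base 8 of the transcript in CDC6. In POLE2 and UHRF1 the capitals hold the reverse complement of a searched word, GCGCCAAA and GCGGGAAA.

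Among the licensing factors, all 11 fell from 0 h to 48 h in APOA4-KO, with a median log2 fold change of -1.16, and in HepG2 6 rose and none fell, with a median of 0.13. Of all genes tested, 13.1% rose and 14.6% fell from 0 h to 48 h in HepG2. The lowest value belonged to CDC6 (chr17:40287633-40304657, plus strand, GRCh38, GENCODE v29), the ATPase that brings the MCM helicase to the origin recognition complex. In HepG2, CDC6 was at 38.02, 35.1 and 37.1 CPM at 0 h, 31.5, 31.4 and 33.5 CPM at 24 h and 50.3, 48.9 and 49.4 CPM at 48 h. In APOA4-KO it was at 40.1, 40.4 and 36.1 CPM at 0 h, 27.4, 27.2 and 27.9 CPM at 24 h and 10.04, 8.66 and 8.997 CPM at 48 h. The 48 h libraries of HepG2 were the highest of all 18, and those of APOA4-KO were the lowest, without overlap. The log2 fold change from 0 h to 48 h was 0.43 (SE 0.0538, adjusted p = 5.18e-06) in HepG2 and -2.07 (SE 0.0578, adjusted p = 8.11e-16) in APOA4-KO by edgeR.

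MCM5 (chr22:35400063-35425430, plus strand) had the next lowest change of this role. Its 3 libraries were at 129, 129 and 122 CPM at 0 h, 73.5, 68.7 and 73.8 CPM at 24 h and 52.1, 49.6 and 51.4 CPM at 48 h in APOA4-KO. In HepG2 they were at 112, 112 and 115 CPM at 0 h, 91.00, 88.4 and 84.6 CPM at 24 h and 125, 123 and 128 CPM at 48 h. In APOA4-KO each time point lay below the one before it with no overlap, and in HepG2 the 24 h libraries were lowest and the 48 h libraries highest. From 0 h to 48 h MCM5 changed by -1.31 (SE 0.0375, adjusted p = 1.14e-15) in APOA4-KO and 0.15 (SE 0.0366, adjusted p = 0.00405) in HepG2 on the log2 scale by edgeR. The other subunits of the ring moved in the same direction, all past the test and all with the 48 h libraries below the 0 h libraries (edgeR; means ± SD, n = 3). MCM2 went from 296 ± 4.404 to 129.9 ± 5.12 CPM, a change of -1.19 (SE 0.0297, adjusted p = 1.64e-16) on the log2 scale. MCM3 went from 230.4 ± 1.62 to 127 ± 0.796 CPM, or by -0.86 (SE 0.0276, adjusted p = 5.94e-15). MCM3 was the least changed subunit of the ring in APOA4-KO. MCM4 went from 115 ± 3.28 to 51.5 ± 1.34 CPM, or by -1.16 (SE 0.0392, adjusted p = 1.24e-14). MCM6 went from 26.03 ± 0.695 to 10.9 ± 0.596 CPM, or by -1.26 (SE 0.0599, adjusted p = 1.91e-12), and MCM7 from 218 ± 2.99 to 112 ± 2.400 CPM, or by -0.96 (SE 0.02700, adjusted p = 8.6e-16). The summed level of the 6 subunits was 943, 796 and 1045 CPM in HepG2 and 1012, 706 and 482 CPM in APOA4-KO.

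In the deposited values per length, the subunits differed widely, although they form a ring with 1 copy of each. The length used by the authors is not stated. Merged over all transcripts, MCM5 and MCM4 have 7338 and 6973 exon bases, beside 3650 to 4902 for MCM2, MCM3, MCM6 and MCM7. The part of length in these differences was not tested. On the FPKM scale (read counts normalized for gene length and library depth), MCM2 was at 60.7 ± 0.9000, MCM3 at 55.2 ± 2.02 and MCM7 at 48.8 ± 1.14 in HepG2 at 0 h (SD, n = 3). MCM5 was at 15.5 ± 0.243, MCM4 at 10.8 ± 0.5795 and MCM6 at 5.21 ± 0.256 FPKM in the same libraries. In APOA4-KO at 48 h, MCM3 was at 31.7 ± 0.02000, MCM2 at 25.1 ± 0.843, MCM7 at 23.2 ± 0.6103 and MCM6 at 2.397 ± 0.145 FPKM. Of the exon bases of MCM2, 23.6% overlap genes on the opposite strand, so that reads of those genes may enter its level if strand was not used in the counting.

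**Figure D2:**
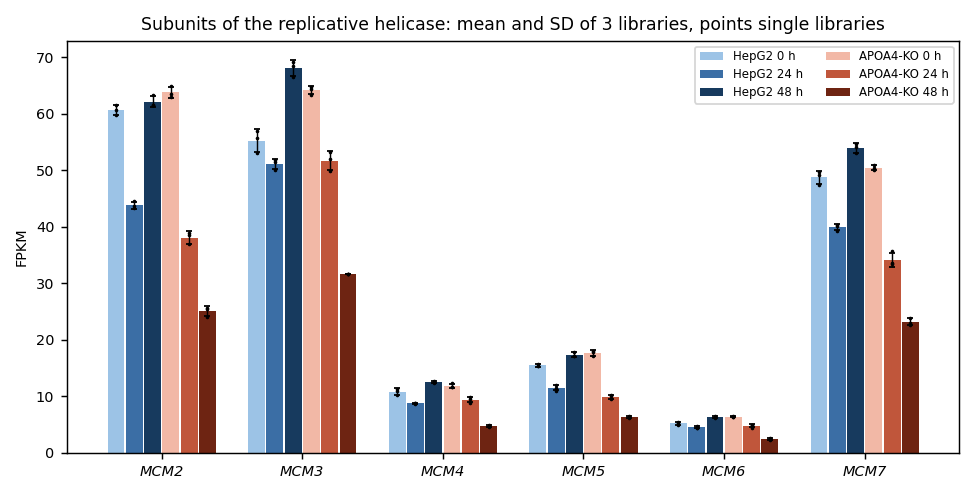
Bars give the mean FPKM of the 6 helicase subunits in each of the 6 groups, error bars the SD of 3 libraries and points the single libraries. For each subunit the bar of APOA4-KO at 48 h is the lowest, and MCM2, MCM3 and MCM7 lie above MCM4, MCM5 and MCM6 in every group.

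CDT1 and GMNN form a pair in licensing, in which geminin, the product of GMNN, binds CDT1 and blocks relicensing within S phase. CDT1 (chr16:88803213-88809258, plus strand) was at 66.4, 64.2 and 66.8 CPM at 0 h, 44.1, 44.6 and 45.04 CPM at 24 h and 52.7, 61.1 and 53.7 CPM at 48 h in APOA4-KO. In HepG2 it was at 51.3, 49.05 and 46.4 CPM at 0 h, 37.6, 36.5 and 37.5 CPM at 24 h and 53.1, 54.9 and 52.1 CPM at 48 h. The 48 h libraries of both lines overlapped, and within APOA4-KO those at 48 h lay below those at 0 h and above those at 24 h. CDT1 changed from 0 h to 48 h by -0.24 (SE 0.04900, adjusted p = 0.000468) in APOA4-KO on the log2 scale, the smallest change of the licensing role, and then by 0.32 (adjusted p = 2.5e-05) between 24 h and 48 h by edgeR. GMNN was at 32.03 ± 1.93 CPM at 0 h and 20.4 ± 1.78 CPM at 48 h in APOA4-KO (SD, n = 3), with a fitted log2 fold change of -0.65 (SE 0.0626, adjusted p = 5.07e-08) by edgeR. ORC1 and ORC6, both subunits of the origin recognition complex, changed by -1.15 and -1.25 in that comparison, also past the test.

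Among the 8 factors of helicase activation, all fell in APOA4-KO from 0 h to 48 h, 7 of them by at least 1 on the log2 scale, with a median of -1.55. None of them fell in HepG2, where the median was 0.08, and 1 of the 8, MCM10, rose (adjusted p = 0.0484 by edgeR), a share near the 13.1% of all genes, and its call was kept in 6 of 9 other settings and with 10 of the 18 libraries left out in turn. GINS2 (chr16:85676198-85690073, minus strand), a subunit of the GINS complex that holds the active helicase together, was at 30.9, 29.1 and 32.6 CPM at 0 h, 14.6, 15.4 and 14.6 CPM at 24 h and 8.07, 7.34 and 7.44 CPM at 48 h in APOA4-KO. In HepG2, GINS2 was at 27.9, 26.2 and 25.5 CPM at 0 h, 22.2, 19.6 and 20.2 CPM at 24 h and 30.5, 26.7 and 28.5 CPM at 48 h. The APOA4-KO time points did not overlap one another, and the HepG2 48 h libraries overlapped those at 0 h. From 0 h to 48 h the log2 fold change was -2.02 (SE 0.0675, adjusted p = 1.09e-14) in APOA4-KO and 0.10 (SE 0.0632, adjusted p = 0.267) in HepG2 by edgeR. GINS3 went from 17.3 ± 0.997 to 4.33 ± 1.31 CPM in APOA4-KO (SD, n = 3), a change of -2.01 (SE 0.165, adjusted p = 5.46e-09) by edgeR, and GINS1 and GINS4 by -1.57 and -1.51, so that the 4 subunits of the complex moved in 1 direction.

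The kinase CDC7 and its activator DBF4, which phosphorylate the loaded helicase, changed by different amounts. CDC7 (chr1:91500893-91525764, plus strand) was at 3.97, 3.802 and 3.96 CPM at 0 h, 3.47, 3.61 and 2.71 CPM at 24 h and 1.78, 1.002 and 0.862 CPM at 48 h in APOA4-KO. The HepG2 libraries were at 2.32, 3.02 and 3.02 CPM at 0 h, 2.36, 3.12 and 3.21 CPM at 24 h and 3.901, 3.501 and 4.32 CPM at 48 h. Its APOA4-KO libraries at 48 h lay below the other 15, and the lowest of them held 62 counts, so that the value is less precise than for most members. The log2 fold change of CDC7 was -1.69 (SE 0.227, adjusted p = 3.87e-06) in APOA4-KO, and that of DBF4 was -0.44 (SE 0.0822, adjusted p = 0.000188), the smallest of this role, from 8.15 ± 0.321 to 6.02 ± 0.249 CPM (SD, n = 3; edgeR). MCM10 and CDC45, which travel with the helicase, changed by -1.51 and -1.53.

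Of the 9 polymerase and primase subunits, 8 fell from 0 h to 48 h in APOA4-KO, with a median log2 fold change of -1.02. In HepG2 the median was 0.12, and 3 of the 9 rose, beside 13.1% of all genes. The lowest values in APOA4-KO belonged to 2 noncatalytic subunits. POLE2 (chr14:49643555-49688422, minus strand), a subunit of the leading-strand polymerase epsilon, was at 4.59, 3.35 and 4.56 CPM at 0 h, 2.66, 2.36 and 2.96 CPM at 24 h and 0.958, 0.461 and 1.35 CPM at 48 h in APOA4-KO. In HepG2 it was at 3.36, 3.12 and 3.98 CPM at 0 h, 3.57, 2.89 and 2.58 CPM at 24 h and 4.19, 3.54 and 3.65 CPM at 48 h. The APOA4-KO 48 h libraries lay below the other 15, and the HepG2 groups overlapped. The log2 fold change of POLE2 from 0 h to 48 h was -2.17 (SE 0.269, adjusted p = 1.38e-06) and its lowest library held 35 counts, whereas the catalytic subunit POLE changed by -1.18 with an SE of 0.0533 (edgeR). POLA2 (chr11:65261762-65305589, plus strand), a subunit of the polymerase alpha and primase complex, fell from 19.7 ± 0.9200 to 4.65 ± 0.6405 CPM in APOA4-KO (SD, n = 3), with a fitted log2 fold change of -2.08 (SE 0.136, adjusted p = 1.88e-10) by edgeR, although 35.1% of its exon bases overlap another gene. POLA1, the catalytic subunit of that complex, changed by -1.02.

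PRIM1, the primase that makes the RNA primers, stood apart from these subunits. It was at 11.5, 9.64 and 10.6 CPM at 0 h, 9.58, 10.004 and 9.41 CPM at 24 h and 9.25, 8.597 and 10.01 CPM at 48 h in APOA4-KO. The HepG2 libraries were at 7.51, 6.703 and 8.36 CPM at 0 h, 7.64, 8.89 and 7.52 CPM at 24 h and 9.33, 8.81 and 9.87 CPM at 48 h. The APOA4-KO libraries at 48 h overlapped those at 0 h and those of HepG2 at 48 h. On the log2 scale PRIM1 changed by -0.19 (SE 0.0986, adjusted p = 0.128), with a 95% interval of -0.40 to 0.02, and it passed the test at -0.35 (adjusted p = 0.00638) when only library size was used for scaling (edgeR). Of its exon bases, 21.6% overlap other genes, among them NACA on the same strand. Among the subunits of polymerase delta, which copies the lagging strand, POLD1 and POLD2 changed by -0.65 and -0.74 and POLD3 by -1.05 from 0 h to 48 h in APOA4-KO.

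Of the 11 genes of the clamp, its loader, single-strand binding and joining, 10 fell and RFC1 rose (not past the test on library size alone) in APOA4-KO from 0 h to 48 h, with a median log2 fold change of -0.94. PCNA (chr20:5114953-5126626, minus strand) is the sliding clamp that holds polymerases on DNA. Its libraries were at 202, 199 and 195 CPM at 0 h, 110.1, 110.5 and 118 CPM at 24 h and 58.2, 55.04 and 56.9 CPM at 48 h in APOA4-KO. In HepG2 they were at 222, 221 and 224 CPM at 0 h, 151, 153 and 163 CPM at 24 h and 211, 212 and 211 CPM at 48 h. In APOA4-KO each time point lay below the one before it, without overlap, and in HepG2 the 48 h libraries lay between those at 24 h and those at 0 h. From 0 h to 48 h PCNA changed by -1.81 (SE 0.0336, adjusted p = 2.04e-18) in APOA4-KO and -0.07 (SE 0.0322, adjusted p = 0.104) in HepG2 on the log2 scale by edgeR.

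FEN1 (chr11:61792637-61797244, plus strand), the nuclease that trims the ends of lagging-strand fragments, had the lowest change of this role. In APOA4-KO it was at 40.2, 39.1 and 38.4 CPM at 0 h, 27.9, 28.7 and 27.5 CPM at 24 h and 10.4, 10.9 and 9.65 CPM at 48 h. In HepG2 it was at 37.5, 37.9 and 39.1 CPM at 0 h, 33.03, 33.5 and 32.3 CPM at 24 h and 41.00, 42.3 and 46.5 CPM at 48 h. The APOA4-KO 48 h libraries were lowest of all 18 and the HepG2 48 h libraries highest. FEN1 changed by -1.93 (SE 0.0527, adjusted p = 6.19e-16) in APOA4-KO, and LIG1, which seals the trimmed ends, by -0.94 with an SE of 0.0402 (edgeR). The single-strand binding subunits RPA1, RPA2 and RPA3 changed by -0.67, -1.38 and -0.75, all past the test.

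RFC1 (chr4:39287456-39366375, minus strand), the large subunit of the clamp loader, was the exception of this role. It was at 54.6, 57.6 and 55.9 CPM at 0 h, 72.01, 72.8 and 74.3 CPM at 24 h and 65.7, 62.9 and 65.8 CPM at 48 h in APOA4-KO. The HepG2 libraries were at 51.8, 51.1 and 50.98 CPM at 0 h, 42.01, 41.8 and 40.7 CPM at 24 h and 59.7, 57.8 and 55.6 CPM at 48 h. In APOA4-KO the 24 h libraries were the highest and the 0 h libraries the lowest, and in HepG2 the 24 h libraries were the lowest. The log2 fold change of RFC1 from 0 h to 48 h was 0.21 (SE 0.0345, adjusted p = 4.42e-05) in APOA4-KO, but 0.05 (adjusted p = 0.238) with library size alone as the scale, and 0.17 (SE 0.0346, adjusted p = 0.000968) in HepG2 (edgeR). Its partners RFC2, RFC3, RFC4 and RFC5 changed by -1.33, -0.58, -0.85 and -1.01 in APOA4-KO, all past the test.

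All 4 genes of nucleotide supply fell in APOA4-KO from 0 h to 48 h, with a median log2 fold change of -1.02. In HepG2, RRM1 and RRM2 rose and TYMS fell at the test's limit, beside 13.1% of all genes that rose and 14.6% that fell. RRM2 (chr2:10120698-10131419, plus strand) is the subunit of ribonucleotide reductase whose level limits the enzyme in S phase. It was at 117, 115 and 114 CPM at 0 h, 93.4, 97.2 and 91.3 CPM at 24 h and 61.5, 58.5 and 57.4 CPM at 48 h in APOA4-KO. In HepG2 it was at 123, 124 and 114 CPM at 0 h, 97.9, 95.6 and 102 CPM at 24 h and 152, 156 and 160.1 CPM at 48 h. At 48 h the HepG2 libraries were the highest of all and the APOA4-KO libraries the lowest. RRM2 changed from 0 h to 48 h by -0.96 (SE 0.0381, adjusted p = 1.27e-13) in APOA4-KO and 0.38 (SE 0.0375, adjusted p = 3.35e-07) in HepG2 on the log2 scale by edgeR. Of the exon bases of RRM2, 20.2% overlap AC007240.1 on the same strand. RRM1, the large subunit, went from 43.1 ± 2.49 to 25.6 ± 2.49 CPM in APOA4-KO (SD, n = 3), by -0.75 (SE 0.0729, adjusted p = 5.41e-08), the smallest change of this role (edgeR).

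TK1, the thymidine kinase of the salvage route, and TYMS, which makes thymidylate anew, moved in the same direction in APOA4-KO. TK1 (chr17:78174075-78187233, minus strand) was at 151, 146 and 148 CPM at 0 h, 83.6, 69.5 and 72.2 CPM at 24 h and 48.6, 49.1 and 50.8 CPM at 48 h. TYMS (chr18:657604-673578, plus strand) was at 109.9, 117 and 121 CPM at 0 h, 81.4, 84.3 and 88.3 CPM at 24 h and 58.01, 55.5 and 50.4 CPM at 48 h. Within each gene the 3 time points did not overlap. TK1 changed by -1.58 (SE 0.0507, adjusted p = 5.9e-15) and TYMS by -1.08 (SE 0.0508, adjusted p = 1.54e-12) on the log2 scale (edgeR). In HepG2, TYMS was at 119, 126 and 118 CPM at 0 h, 96.4, 94.6 and 99.3 CPM at 24 h and 107, 106 and 115 CPM at 48 h, with a change from 0 h to 48 h of -0.15 (SE 0.0499, adjusted p = 0.0357) by edgeR. That call was lost on library size alone, with no filter and on both FPKM scales, and it was kept with 8 of the 18 libraries left out in turn. ENOSF1 and TYMSOS on the opposite strand overlap 46.6% of the exon bases of TYMS, so that its level is uncertain where strand was not used in the counting.

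All 6 genes of S phase entry control fell in APOA4-KO from 0 h to 48 h, each by at least 1 on the log2 scale, with a median of -1.49. None of them rose past the test in HepG2, where the median was -0.11, and 1 of the 6, E2F2, passed the test at -0.25 (SE 0.0881, adjusted p = 0.0386) by edgeR, a share near the 14.6% of all genes that fell. Its call was lost with no filter, on log2(FPKM + 0.1) and in the fit of the compared groups only, and it was kept with 8 of the 18 libraries left out in turn. Cyclin E, which activates CDK2 at the entry into S phase, is encoded by CCNE1 and CCNE2. CCNE2 was at 1.24, 1.77 and 1.53 CPM at 0 h, 1.02, 1.28 and 0.864 CPM at 24 h and 0.361, 0.3296 and 0.139 CPM at 48 h in APOA4-KO. The HepG2 libraries were at 0.925, 1.21 and 1.12 CPM at 0 h, 1.03, 1.08 and 1.08 CPM at 24 h and 1.79, 2.27 and 1.378 CPM at 48 h. Those at 48 h lay above the HepG2 libraries of the other times. The log2 fold change of CCNE2 from 0 h to 48 h in HepG2 was 0.74, the highest of the 53 members, but it did not pass the test. The APOA4-KO libraries at 48 h lay below the other 15, at as few as 10 counts. Its log2 fold change of -2.44 (SE 0.316, adjusted p = 2.41e-06) in APOA4-KO was the lowest of the 53 members and had a 95% interval of -3.11 to -1.78 (edgeR), and 37.1% of its exon bases overlap genes on the opposite strand.

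CCNE1 (chr19:29811898-29824308, plus strand) was far above CCNE2 per length, with 9.18 ± 0.316 against 0.243 ± 0.0306 FPKM in HepG2 at 0 h (SD, n = 3). It was at 19.9, 19.8 and 19.96 CPM at 0 h, 15.3, 13.7 and 13.5 CPM at 24 h and 8.95, 9.68 and 7.62 CPM at 48 h in APOA4-KO. In HepG2 it was at 23.5, 22.3 and 22.1 CPM at 0 h, 24.2, 23.5 and 22.1 CPM at 24 h and 18.4, 21.3 and 20.3 CPM at 48 h. The APOA4-KO time points did not overlap, and in HepG2 the 48 h libraries lay below those of the other times. The log2 fold change from 0 h to 48 h was -1.18 (SE 0.0787, adjusted p = 2.45e-10) in APOA4-KO and -0.18 (SE 0.0758, adjusted p = 0.0939) in HepG2 (edgeR). CDC25A, the phosphatase that removes inhibitory phosphates from CDK2, changed by -1.36 in APOA4-KO.

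E2F1 and E2F2 encode activating E2F factors and E2F8 a repressing one. E2F1 (chr20:33675683-33686404, minus strand) was at 86.7, 88.8 and 89.9 CPM at 0 h, 44.8, 45.8 and 48.4 CPM at 24 h and 43.4, 42.4 and 41.5 CPM at 48 h in APOA4-KO. The HepG2 libraries were at 80.1, 74.1 and 79.97 CPM at 0 h, 64.4, 65.2 and 57.8 CPM at 24 h and 75.5, 74.3 and 75.5 CPM at 48 h. Most of the change in APOA4-KO lay before 24 h, where the log2 fold change was -0.93, beside -0.13 from 24 h to 48 h. From 0 h to 48 h it was -1.06 (SE 0.0455, adjusted p = 4.19e-13), the smallest of this role (edgeR). E2F2 (chr1:23506430-23531220, minus strand) fell from 16.2 ± 0.707 to 3.41 ± 0.367 CPM in APOA4-KO (SD, n = 3), with a fitted log2 fold change of -2.24 (SE 0.0952, adjusted p = 3.55e-13) by edgeR, and E2F8 changed by -1.62.

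All 4 genes of chromatin assembly and maintenance methylation fell in APOA4-KO from 0 h to 48 h, with a median log2 fold change of -1.08. In HepG2, 1 of the 4, UHRF1, rose, beside 13.1% of all genes. UHRF1 (chr19:4903080-4962154, plus strand) recognises hemimethylated DNA behind the fork and brings in the methyltransferase DNMT1. It was at 67.9, 68.4 and 60.9 CPM at 0 h, 49.01, 47.8 and 45.4 CPM at 24 h and 14.8, 17.6 and 15.6 CPM at 48 h in APOA4-KO. In HepG2 it was at 58.6, 58.2 and 59.9 CPM at 0 h, 49.1, 47.3 and 51.4 CPM at 24 h and 70.01, 66.4 and 71.2 CPM at 48 h. The APOA4-KO libraries overlapped those of HepG2 at 24 h and lay far below them at 48 h. UHRF1 changed by -2.04 (SE 0.0601, adjusted p = 1.73e-15) in APOA4-KO and DNMT1 by -0.55 (SE 0.0451, adjusted p = 5.53e-09), the largest and the smallest change of this role (edgeR). DNMT1 was at 122 ± 3.87 CPM at 0 h and 83.8 ± 1.697 CPM at 48 h (SD, n = 3). CHAF1A and CHAF1B, subunits of the factor that places histones on new DNA, also fell. CHAF1A changed by -1.07, and CHAF1B went from 23.6 ± 1.28 to 11.1 ± 0.391 CPM (SD, n = 3), by -1.08 (SE 0.07700, adjusted p = 6.74e-10) (edgeR).

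**Figure D3:**
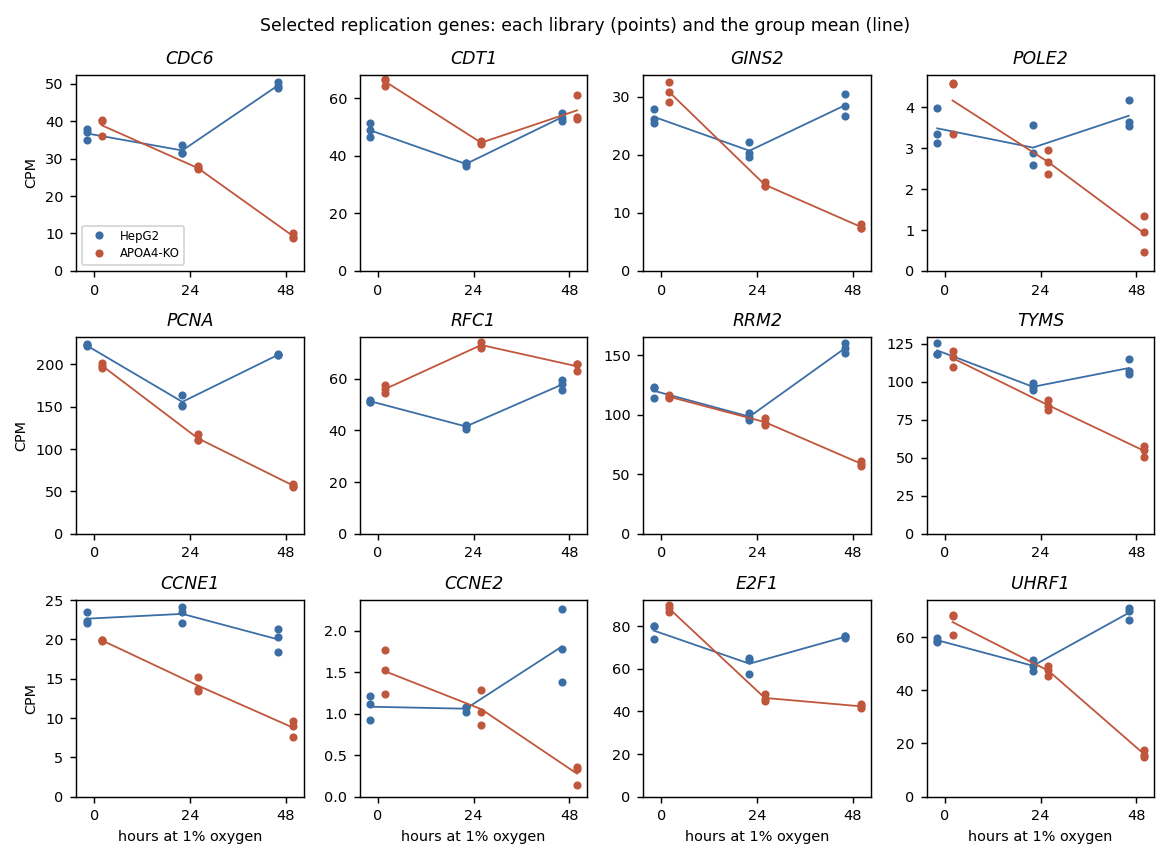
CPM of 12 members against hours at 1% oxygen, with a point for each of the 3 libraries of a group, a line through the group means, and a y axis from 0 in each panel. At 48 h the points of HepG2 and APOA4-KO are apart in 11 of the 12 panels and overlap for CDT1, and on this TMM scale RFC1 is the panel in which APOA4-KO lies above HepG2.

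The course over time differed between the lines. In HepG2 from 0 h to 24 h, 36 members fell and none rose at the test's limit, beside 18.3% and 11.4% of all genes, with a median of -0.28. The lowest value was that of ORC1 at -0.68. Between 24 h and 48 h in HepG2, 40 members rose and 2 fell, beside 18.7% and 11.9% of all genes, with a median of 0.41, and the 2 that fell were CCNE1 (-0.22) and CDC25A (-0.33). The call of CDC25A was kept in every alternative, whereas that of CCNE1 was lost on library size alone, with no filter and on both FPKM scales, and was kept with 6 of the 18 libraries left out in turn. These comparisons share the 24 h libraries. From 0 h to 48 h in HepG2, 17 members rose and 2 fell, beside 13.1% and 14.6% of all genes, with a median of 0.10, and 34 did not pass the test. The 2 falls were those of TYMS and E2F2, and their number was 0 with no filter and on log2(FPKM + 0.1), 1 on library size alone and 6 with DESeq2, where 20 rose. No member fell in the fits without HepG2 0 h replicate 1, HepG2 48 h replicate 2, any of the 3 APOA4-KO 0 h libraries, or APOA4-KO 24 h replicate 1 or 3, and 13 to 19 rose with a library left out. Of those that rose, CDC6 at 0.43 and RRM2 at 0.38 were among the 4 highest together with POLA1 at 0.41 and MCM10 at 0.39.

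In APOA4-KO, 44 members fell and 1, RFC1 at 0.38, rose from 0 h to 24 h, beside 22.8% and 21.5% of all genes, with a median of -0.49. The lowest values were those of POLA2 at -1.11 and GINS2 at -1.05. Without the library APOA4-KO 24 h replicate 1, 42 fell and 1 rose, with a median of -0.48. From 24 h to 48 h, 45 members fell and 2 rose, beside 19.4% and 21.9% of all genes, with a median of -0.66. CCNE2 at -1.93, CDC6 at -1.57 and UHRF1 at -1.57 had the lowest values of that step, and CDT1 at 0.32 and POLD1 at 0.15 were the 2 that rose. On library size alone, 1 member rose and 47 fell, the rise of POLD1 being lost. Without the library APOA4-KO 24 h replicate 1, 46 fell and 2 rose. Both steps share the 24 h libraries.

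Before hypoxia the differences between the lines that passed the test lay between -0.33 and 0.49 on the log2 scale. At 0 h, 14 members were higher and 3 lower in APOA4-KO, beside 12.9% and 17.6% of all genes, with a median log2 difference of 0.08. The 3 lower members were TK1 (-0.33), LIG1 (-0.21) and PCNA (-0.16), and the highest of the 14 was PRIM1, followed by CDT1 at 0.43 and RFC3 at 0.42. At 24 h, 27 members were lower and 8 higher in APOA4-KO, beside 24.6% and 23.6% of all genes, with a median of -0.19. RFC1 was the highest at 0.81 and GINS3 the lowest at -0.80. Without the library APOA4-KO 24 h replicate 1, 27 were lower and 6 higher. At 48 h, 50 members were lower and 1 higher, beside 27.3% and 23.5% of all genes, with a median of -1.19, and 32 were lower by at least 1 on the log2 scale, as were 7.18% of all genes. The 1 that was higher was RFC1 at 0.17, which did not pass the test on library size alone, and the 2 that did not pass were CDT1 at 0.06 and PRIM1 at -0.01.

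A direct test compared the courses of the lines over time, as the change in APOA4-KO minus the change in HepG2. For the change from 0 h to 48 h, 52 of 53 members had a lower value in APOA4-KO and none a higher one, beside 17.8% and 18.6% of all genes. The median difference was -1.21 on the log2 scale, beside -0.04 over all genes, and 37 members differed by at least 1, which 3.99% of all genes did in that direction. The 5 lowest were CCNE2 at -3.18 (SE 0.428, adjusted p = 7.35e-06), CDC6 at -2.51 (SE 0.0788, adjusted p = 2.57e-14), POLE2 at -2.30 (SE 0.366, adjusted p = 5.14e-05), UHRF1 at -2.27 (SE 0.0822, adjusted p = 1.51e-13) and CDC7 at -2.17 (SE 0.313, adjusted p = 1.67e-05) (edgeR). The exception was RFC1, at 0.04 with a 95% interval of -0.06 to 0.14, which turned to -0.13 (adjusted p = 0.0378) with library size alone (edgeR). CDT1 at -0.36, DBF4 at -0.44, PRIM1 at -0.50 and DNMT1 at -0.50 were the smallest of the differences that passed the test.

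For the change from 0 h to 24 h, 26 members had a lower and 2 a higher value in APOA4-KO, beside 15.4% and 16.8% of all genes, with a median difference of -0.27. GINS2 at -0.70 and E2F1 at -0.61 had the lowest values, and RFC1 at 0.69 and DBF4 at 0.48 were the 2 with a higher one. Without the library APOA4-KO 24 h replicate 1, 24 were lower and 2 higher, with a median of -0.29. This comparison shares its 0 h libraries with the one at 48 h.

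**Figure D4:**
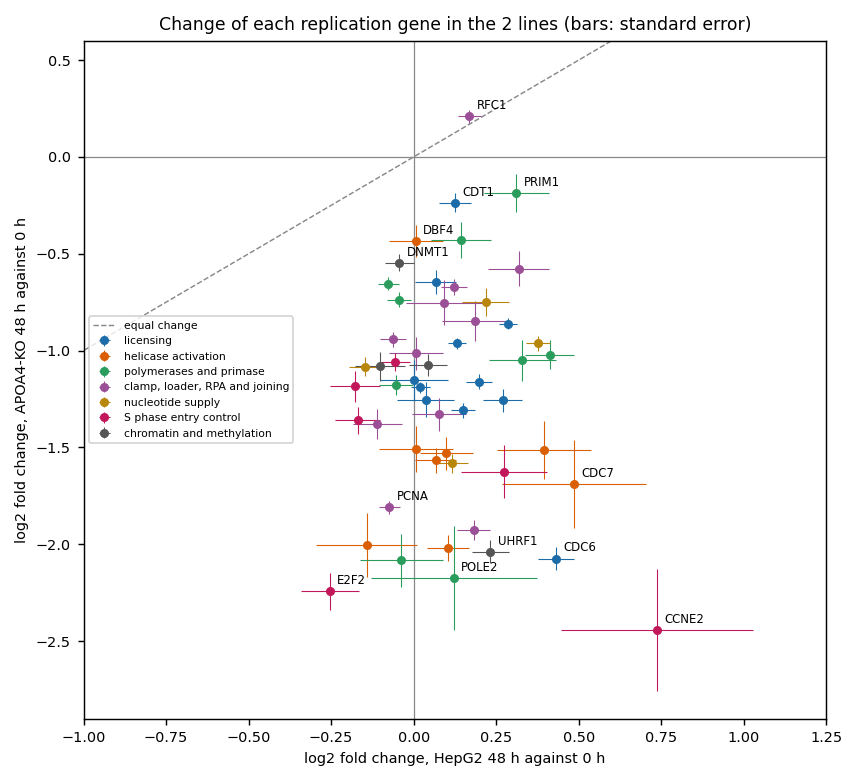
Each point is 1 of the 53 genes, coloured by role, with its log2 fold change from 0 h to 48 h in HepG2 on the x axis and in APOA4-KO on the y axis, bars giving the standard error and the dashed line equal change. All points but RFC1 lie below the dashed line, and RFC1 lies near it, from 0.17 in HepG2 to 0.21 in APOA4-KO, the sign of its distance to the line turning with library size alone.

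Other genes of the pathway, from lists that are no part of the 53, are given by list for the change from 0 h to 48 h, in which 25.9% of all genes fell and 23.9% rose in APOA4-KO, with a median of -0.07. Of 31 other replication factors, 23 fell and 3 rose in APOA4-KO from 0 h to 48 h, with a median of -0.66. CLSPN, the adaptor of the checkpoint kinase at forks, fell by 1.93 on the log2 scale and TICRR, which helps to activate the helicase, by 1.54. TOP1, the topoisomerase that relaxes DNA ahead of the fork, rose by 0.60. Of 20 genes of checkpoint and fork repair, 19 fell and 1 rose, with a median of -0.93, and WEE1, the kinase that restrains CDK1 and CDK2, was the 1 that rose, at 0.64. Of 14 genes of DNA and histone packaging in S phase, 12 fell and 2 rose, with a median of -0.69, and ASF1B, a histone chaperone, fell by 1.54.

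Of 21 genes of the E2F family and the S phase kinases with their inhibitors, 13 fell and 6 rose, with a median of -0.39. E2F7, a repressor, fell by 1.89 and MYBL2, an E2F target, by 1.42, whereas CDKN1B, the inhibitor p27 of cyclin E and CDK2, rose by 0.79 and LIN54, a subunit of the DREAM complex, by 1.53 on the log2 scale. In HepG2 the corresponding values were 0.59 for E2F7, 0.05 for MYBL2, 0.25 for CDKN1B and 1.07 for LIN54. Of 26 other genes of nucleotide supply, 13 fell and 10 rose in APOA4-KO, with a median of -0.12, near the -0.07 of all genes. DTYMK, which phosphorylates thymidylate, fell by 1.57, and MTHFD2, a mitochondrial enzyme of the folate cycle, rose by 0.60.

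Of 23 mitotic genes, 18 fell and none rose in APOA4-KO from 0 h to 48 h, with a median of -0.42, none of them by 1 or more, and BIRC5, a subunit of the chromosomal passenger complex, was lowest at -0.84. In HepG2, 12 of the 23 rose and 2 fell, beside 13.1% and 14.6% of all genes, with a median of 0.19. The 20 hypoxia targets of HIF all rose in both lines, with a median of 1.56 in HepG2 and 2.19 in APOA4-KO. At 0 h all 20 were already higher in APOA4-KO than in HepG2, beside 12.9% of all genes, with a median log2 difference of 0.44. CA9, a carbonic anhydrase induced by HIF, rose by 2.99 in HepG2 and 3.42 in APOA4-KO on the log2 scale, and ADM, which encodes adrenomedullin, by 2.43 and 3.58.

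**Figure D5:**
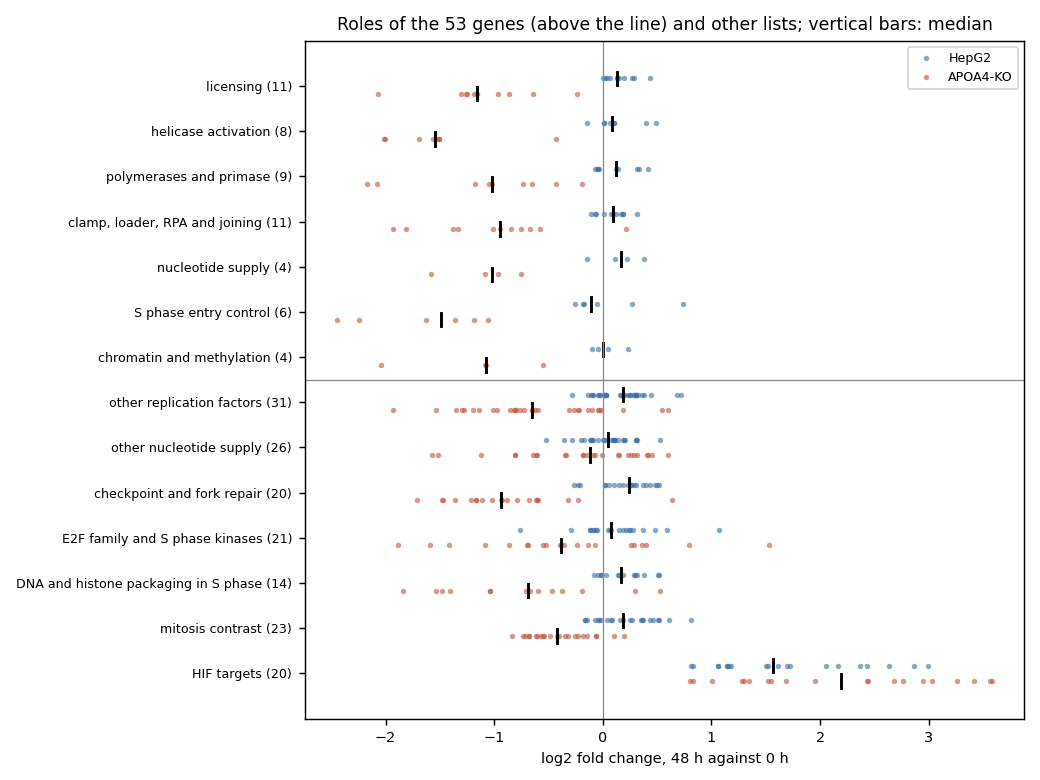
Log2 fold change from 0 h to 48 h on the x axis for each gene of the 7 roles of the 53 genes (above the grey line) and of 7 other lists (below it), with HepG2 in blue, APOA4-KO in red, black bars at the median and the number of genes in brackets. The medians of the 7 roles lie between -1.55 and -0.94 in APOA4-KO and between -0.11 and 0.17 in HepG2, and those of the mitotic genes at -0.42 and 0.19.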

How the data were processed

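Poly(A) RNA of 18 libraries of HepG2 and APOA4-KO cells was sequenced in pairs of 150-base reads. Reads were trimmed by the authors (fastp v0.23.1) and mapped to GRCh38.p13 with Ensembl release 109 (HISAT2 v2.1.0). Gene counting used featureCounts (subread v2.0.2) by the methods, whereas the submitters' processing notes name StringTie. The deposited counts are whole numbers without normalization. The deposited FPKM values, for 33601 genes, are normalized for length and depth by the authors. How strand, read pairs and reads with several alignments were counted is not stated. The labels' protocol marks and removes the second strand, which keeps strand, whereas the methods name a kit that does not, so whether the reads carry strand is not known here. Counts of 4, 8 and 12 were 1.58 to 3.12 times as frequent as their neighbours, so 1 count is not always 1 read pair.

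The count test was that of edgeR 4.0.16 (R 4.3.3; filterByExpr, TMM, quasi-likelihood fit with a coefficient for each of 6 groups over all 18 libraries), with Benjamini-Hochberg adjustment over 19743 genes in each of 11 comparisons and a limit of 0.05. A log2 fold change of 1 served as a second limit. CPM are TMM-scaled. The fit was tested on simulated data and passed for bias, wrong signs and false calls. A first limit on the share of changed genes recovered was not met, and it was replaced by these after this was seen. The members and lists were chosen with earlier results of these data known, so they are described by counts and medians beside those of all genes. Full values were given for the 2 largest and the smallest change of each role from 0 h to 48 h in APOA4-KO, a fixed set of textbook genes, and the 5 largest line differences. Of the other lists, genes among the 3 largest changes in each direction were named. Single values of some genes of these lists are not reported here. Coordinates and exon overlaps came from GENCODE v29 (GRCh38) and promoters from RefSeq (GRCh38.p14). In the 27 pairs of libraries with the same replicate number in 2 groups, deviations from the group means correlated at -0.054 to 0.051, so the numbers were not used as pairs. Alternatives were DESeq2 1.42.0 and its size factors, library size alone, no filter, counts divided by 4, limma 3.58.1 on log2(FPKM + 1) and log2(FPKM + 0.1), the compared groups only, a replicate block and leaving out each library.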

Additional observations from a re-analysis of the deposited data

Results flagged for a closer look

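The change over time differed between the lines, by the test of the difference itself (edgeR, APOA4-KO minus HepG2), for 28 members at 24 h and 52 members at 48 h. Of all genes tested, 16.8% had a higher and 15.4% a lower value at 24 h, and 18.6% and 17.8% at 48 h. Of the 30 members given full values, 29 differed at 48 h and 18 at 24 h. Some of the 30 were chosen by their change in APOA4-KO or their line difference at 48 h, so these 2 counts carry that choice. The values are log2 differences, and the difference at 24 h and that at 48 h share their 0 h libraries.

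At 48 h, the licensing factors differed by -2.51 for CDC6, -0.36 for CDT1, -0.71 for GMNN, -1.21 for MCM2, -1.15 for MCM3, -1.36 for MCM4, -1.46 for MCM5, -1.53 for MCM6 and -1.09 for MCM7. The factors of helicase activation differed by -2.17 for CDC7, -0.44 for DBF4, -2.12 for GINS2 and -1.86 for GINS3. Of the polymerase, clamp and joining genes, POLA2 differed by -2.05, PRIM1 by -0.50, POLE2 by -2.30, PCNA by -1.73 and FEN1 by -2.11. In nucleotide supply the differences were -0.97 for RRM1, -1.34 for RRM2, -0.94 for TYMS and -1.70 for TK1. In S phase entry control they were -1.01 for CCNE1, -3.18 for CCNE2, -1.004 for E2F1 and -1.99 for E2F2, and in the chromatin role -0.98 for CHAF1B, -2.27 for UHRF1 and -0.50 for DNMT1.

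At 24 h, the differences were -0.31 for CDC6, -0.44 for GMNN, -0.32 for MCM2, -0.24 for MCM3, -0.45 for MCM5, -0.26 for MCM6 and -0.32 for MCM7. They were -0.70 for GINS2, -0.52 for POLA2, -0.30 for PCNA, -0.27 for FEN1, -0.37 for TK1, -0.53 for CCNE1, -0.61 for E2F1, -0.58 for E2F2 and -0.49 for CHAF1B. RFC1 at 0.69 and DBF4 at 0.48 were the 2 members with a higher value in APOA4-KO.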

How the results depend on the processing

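With library size alone as the scale, the median of all genes moved to between -0.23 and 0.10 over the comparisons, and the members moved with it. Their median log2 fold change was then 0.49 from 24 h to 48 h in HepG2, -1.32 from 0 h to 48 h and -0.79 from 24 h to 48 h in APOA4-KO, -1.34 between the lines at 48 h and -1.38 for the line difference at 48 h. Relative to all genes, the change from 0 h to 48 h in APOA4-KO stayed at -1.09. With limma on log2(FPKM + 1) the medians were -0.996 from 0 h to 48 h in APOA4-KO, -0.0935 and -0.99 between the lines at 24 h and 48 h, and -0.19 and -1.05 for the line differences at 24 h and 48 h. With log2(FPKM + 0.1) they were -1.30 and -0.78 in APOA4-KO from 0 h and from 24 h to 48 h, -1.29 between the lines at 48 h and -1.38 for the line difference at 48 h. These 3 alternatives use no scaling for composition, and under them the line difference of RFC1 at 48 h turned to -0.13, -0.12 and -0.13. The rise of RFC1 in APOA4-KO to 48 h no longer passed the test, with a log2 fold change of 0.05 in each of the 3. The fall of PRIM1 in APOA4-KO to 48 h passed it under them, with log2 fold changes of -0.35, -0.27 and -0.34. The other 664 values of counts and medians over the members moved by less than the limits set for them. The limit for a median was 0.078 on the log2 scale, the median pooled SD of the members within groups. For a count it was a ratio of the numbers called, which takes no account of direction. In HepG2 from 0 h to 48 h, 16 to 26 members passed the test over the alternatives that kept all libraries, and 0 to 6 were lower. Members lower by at least 1 numbered 26 to 40 from 0 h to 48 h in APOA4-KO over the alternatives that kept all libraries, and 33 to 35 with a library left out. Members whose APOA4-KO libraries at 48 h lay below the other 15 numbered 42 to 44, the FPKM scale being added after seeing the data. In the fit with the replicate block, 52 members passed the test from 0 h to 48 h in APOA4-KO and 52 in the line difference at 48 h, and no call named in the text changed. The precision of a small count is limited, as counts of CCNE2, POLE2 and CDC7 went down to 10, 35 and 62.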
